A study of Mus musculus with 151 samples.

Results

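Genes of the tectorial membrane and of its attachments were read in single hair cells of the mouse cochlea: *Strc*, *Tecta*, *Tectb*, *Otog*, *Otogl*, *Otoa*, *Ceacam16* and *Epyc*. These 8 genes, taken by name, were 8 of 55291 genes in the counts. The cells fell in 3 groups. The 55 P14_WT IHCs were inner hair cells (IHCs) of postnatal day 14 from C57BL/6 mice of the genotype vGlut3-P2A-iCreER/+; Ai9/+, and the 50 P30_WT IHCs came from mice of the same genotype at postnatal day 30. The 46 P14_iOHCs (induced outer hair cells) came at postnatal day 14 from vGlut3-P2A-iCreER/+; Tbx2 flox/-; Ai9/+ mice, in which the floxed *Tbx2* allele can be recombined in IHCs after birth and the other allele is already null. In every group the inducible Cre was driven from the vGlut3 (*Slc17a8*) locus, Ai9 supplied the red reporter by which cells were picked by hand, and tamoxifen was given to the pups. The iOHCs were also picked for their smaller size. Each library was 1 cell, and the labels name no animal, so each group was treated as 1 sample: no test was run, no p-value is given, and SDs and ranges describe the spread between cells only.

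The tectorial membrane is an acellular sheet that lies over the hair bundles of the organ of Corti. Its striated-sheet matrix is built from the tectorins, which are zona pellucida-domain glycoproteins encoded by *Tecta* and *Tectb*, together with CEACAM16, a secreted member of the carcinoembryonic antigen family. Otogelin (*Otog*) and otogelin-like (*Otogl*) are large mucin-related proteins of the same matrix, and epiphycan (*Epyc*) is a small leucine-rich proteoglycan. These products are known mainly from supporting and other non-sensory epithelial cells. Stereocilin (*Strc*) is a hair cell product: it forms the horizontal top connectors between stereocilia of outer hair cells (OHCs) and the crowns that fix their tallest stereocilia in the membrane, whereas IHC bundles are not embedded in that way in the adult. Otoancorin (*Otoa*), related to stereocilin, fixes the membrane to the spiral limbus and, early in life, to cells of the greater epithelial ridge.

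The attachment gene *Strc* and most matrix genes had higher means in P14_iOHCs than in P14_WT IHCs, but their spread over cells differed. *Strc* was found in all 46 P14_iOHCs at a mean 7.04-fold that of P14_WT IHCs. *Ceacam16*, *Epyc*, *Otogl*, *Tectb* and *Otog* had means 51.6-, 40.2-, 19.1-, 15.1- and 6.87-fold those of P14_WT IHCs, with much of each sum in a few cells, and across P14_iOHCs the level of each went with that of supporting cell markers. *Tecta* had a mean 7.71-fold lower in P14_iOHCs.

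The promoters of the attachment gene *Strc* and of the matrix gene *Otog* are shown because, of the members with a window in the RefSeq table (GRCm38.p6), only these held the 8 bases AGGTGTGA, a T-box half-site. TBX2 is a T-box factor, and the motif was chosen after the promoters were seen. Windows run from 250 bases before the RefSeq start to 50 after it, 5′ to 3′ on the gene's strand, with the match in capitals. Of 8 members, 6 had a window (8 windows in all); *Otogl* and *Ceacam16* had none. The *Strc* window is chr2:121380891-121381190 on the minus strand, and the *Otog* window is chr7:46240737-46241036 on the plus strand.
Strc: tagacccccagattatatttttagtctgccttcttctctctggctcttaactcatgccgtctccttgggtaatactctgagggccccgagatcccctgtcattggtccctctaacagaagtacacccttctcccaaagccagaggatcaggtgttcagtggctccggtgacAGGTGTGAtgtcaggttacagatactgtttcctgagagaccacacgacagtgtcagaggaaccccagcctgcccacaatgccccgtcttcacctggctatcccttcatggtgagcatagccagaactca
Otog: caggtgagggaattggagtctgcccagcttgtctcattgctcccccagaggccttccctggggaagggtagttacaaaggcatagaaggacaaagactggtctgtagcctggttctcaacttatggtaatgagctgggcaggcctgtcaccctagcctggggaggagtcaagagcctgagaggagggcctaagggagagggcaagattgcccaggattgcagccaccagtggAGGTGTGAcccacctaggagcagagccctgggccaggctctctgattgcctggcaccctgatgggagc
The match began 79 bases before the start in *Strc* and 18 bases before it in *Otog*. Searched on both strands, it was in 419 of 32851 windows of this length (1.28%). The shorter core GGTGTG, which lies within it, was in 19.05% of windows and also in that of *Otoa*, 37 bases before the start. In the GENCODE gene models, whose coordinates are given below, the *Strc* and *Otoa* windows lie inside the gene and not at its outer 5′ end. The distances given here hold for the RefSeq starts only. In *Strc* the match overlaps an E-box, CAGGTG, which was in 20.2% of windows. A match describes the letters only, and no binding was measured here.

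**Figure D1:**
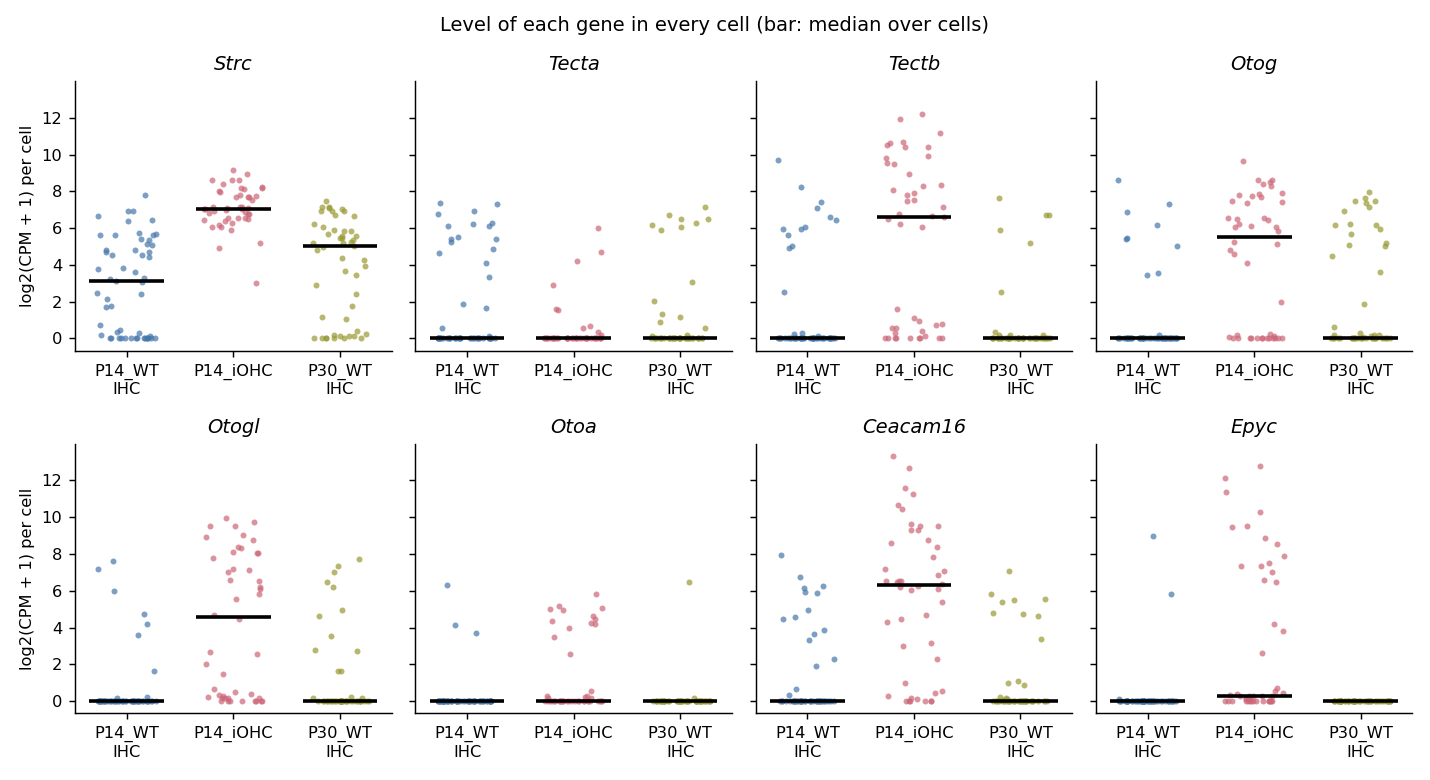
Each panel plots 1 gene, with log2(CPM + 1) on the y axis and 1 point per cell for the 55 P14_WT IHCs, 46 P14_iOHCs and 50 P30_WT IHCs; black bars are medians over cells. *Strc* is above 0 in every P14_iOHC, whereas *Tectb*, *Otog*, *Otogl* and *Epyc* are near 0 in some P14_iOHCs and high in others.

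Depth ranges overlapped between groups. The total count per cell was 4326416 to 22622030 in P14_WT IHCs, 6059570 to 22963196 in P14_iOHCs and 5692841 to 25035444 in P30_WT IHCs, with medians of 15633949, 16259204 and 13835982. A count of 3 was worth 0.131 to 0.693 CPM (the count over the cell's total, times 1000000) in cells of postnatal day 14. Totals fell in 2 sets, with 51 cells under 11000000 and 100 above, and their mix differed: 16 of 55 P14_WT IHCs, 12 of 46 P14_iOHCs and 23 of 50 P30_WT IHCs were in the lower set. The numbers that the labels give the cells went with these sets. In P14_WT IHCs the lower set was cells 1 to 16 and in P30_WT IHCs cells 1 to 23, whereas in P14_iOHCs both sets occurred between cells 6 and 18, with only the lower set before and only the upper set after. The labels do not say what the numbering follows. Values within each set are given where they bear on a result. The cells carried markers of their labels, but *Slc17a8*, an IHC marker, also had counts in 40 of the 46 P14_iOHCs. It averaged 123 CPM there and 1230 CPM in P14_WT IHCs. In P14_iOHC numbers 18, 44 and 1, at 935, 722 and 586 CPM, *Slc17a8* lay within the range of P14_WT IHCs. *Myo6* and *Pou4f3*, which mark hair cells, had counts in all 151 cells, and *Slc26a5*, which encodes the OHC motor prestin, had counts in 46 of 46 P14_iOHCs, 2 of 55 P14_WT IHCs and 2 of 50 P30_WT IHCs. *Tbx2* was at 260 CPM in P14_WT IHCs, 193 CPM in P30_WT IHCs and 69.3 CPM in P14_iOHCs (means over cells), with counts in 45 of the 46 P14_iOHCs. Counts per gene do not separate the floxed part from the rest, so they do not show whether a cell lost *Tbx2*.

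Supporting cell markers also differed between groups. Of 16 markers, 9 had counts in at least 50% of the P14_iOHCs, against 2 in P14_WT IHCs and 4 in P30_WT IHCs. *Prox1*, a marker of pillar and Deiters cells, was at 0 in all cells of postnatal day 14, but no other marker of the list was. *Fgfr3* averaged 0.544 CPM in P14_iOHCs and 0.001 CPM in P14_WT IHCs, *Lgr5* 18.1 and 5.28 CPM and *Hey2* 3.72 and 0.868 CPM. Of the 13 markers that passed the filter on counts, 12 had a higher mean in P14_iOHCs. The summed level of the 16 genes ranged from 2285 to 19438 CPM (median 5558) in P14_iOHCs, from 3851 to 9023 CPM (median 5541) in P14_WT IHCs and from 1749 to 8542 CPM (median 4789) in P30_WT IHCs, and most of it was *Fbxo2*, which hair cells express as well. Without *Fbxo2* and *Ptprz1*, the sum of the other 14 ranged from 0 to 8813 CPM (median 672) in P14_iOHCs, from 0 to 1547 CPM (median 21.5) in P14_WT IHCs and from 0 to 714 CPM (median 57.6) in P30_WT IHCs. As a score, log2(CPM + 1) was averaged over the 16 markers in each cell. In 11 of the 46 P14_iOHCs this score was above that of every P14_WT IHC (highest 4.22), and ratios of P14_iOHCs to P14_WT IHCs are therefore given below with and without those 11 cells. This cutoff leaves out P14_iOHCs only. P14_WT IHC numbers 50, 54 and 45 stay in, at scores of 4.22, 4.09 and 4.01. For genes whose level went with the score, a smaller ratio without the 11 cells therefore follows largely from the cutoff. What part RNA of neighbouring cells had in these values was not tested.

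*Strc* was the member found in most cells of every group. It had counts in 40 of 55 P14_WT IHCs (72.7%, exact 95% interval 59.0% to 83.9%), in 46 of 46 P14_iOHCs (interval 92.3% to 100%) and in 43 of 50 P30_WT IHCs (86.0%, interval 73.3% to 94.2%). Intervals for shares are Clopper-Pearson intervals over cells, which take the cells of a group as independent draws. The labels name no animal, so these intervals leave out differences between animals and may be too narrow. They are not a test between groups. In P14_WT IHCs its level ran from 0 through a median of 7.87 to 222 CPM and averaged 25.3 ± 41.1 CPM (SD, n = 55 cells). In P14_iOHCs it ran from 7.09 through a median of 132 to 578 CPM and averaged 178 ± 125 CPM (SD, n = 46 cells). The groups overlapped, but 12 of the 46 P14_iOHCs were above every P14_WT IHC and 26 of the 55 P14_WT IHCs were below every P14_iOHC. Summed over cells, 118261 counts (exact Poisson 95% interval 117588 to 118937) stood against 19388 (interval 19116 to 19663). Poisson intervals, here and for *Otoa* below, leave out the spread between cells, which is far wider. They also treat amplified reads without molecular identifiers as independent, so they understate the error.

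The difference in the mean of *Strc* was 153 CPM, which is 3.72 times the SD between P14_WT IHCs. On the log2 scale, with 1 CPM added to each mean, the ratio was 2.77. It was 2.92 without the 11 P14_iOHCs of high supporting cell score, 2.83 within the cells of lower total count and 2.76 within those of higher total count. Leaving out any 1 cell kept it between 2.69 and 2.98. The mean in the lower set was 227 ± 169 CPM (SD, n = 12 cells) against 30.96 ± 40.3 CPM (SD, n = 16 cells), and in the upper set 161 ± 103 CPM (SD, n = 34 cells) against 22.95 ± 41.7 CPM (SD, n = 39 cells).

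In P30_WT IHCs, *Strc* ran from 0 through a median of 31.04 to 180 CPM and averaged 43.1 ± 48.96 CPM (SD, n = 50 cells). This was 1.70-fold the mean of P14_WT IHCs (log2 ratio 0.75), a difference of 0.433 times the SD between P14_WT IHCs, and every P30_WT IHC lay within the range of the P14_WT IHCs. *Strc* (chr2:121363728-121387168, minus strand) shares 10 of its 6229 exonic bases with *Ckmt1* on the other strand.

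*Otoa* (chr7:121081650-121163097, plus strand) was low throughout. It had counts in 3 of 55 P14_WT IHCs (5.45%, interval 1.14% to 15.1%), at 78.0 CPM in the highest of them. In P14_iOHCs it had counts in 19 of 46 cells (41.3%, interval 27% to 56.8%), and its level ran from 0, which was also the median, to 55.5 CPM. In P30_WT IHCs it had counts in 2 of 50 cells (4.00%, interval 0.488% to 13.7%). Otoancorin transcripts were thus found in more P14_iOHCs, averaging 6.84 ± 12.8 CPM (SD, n = 46 cells) against 1.93 ± 10.8 CPM (SD, n = 55 cells), a difference of 0.455 times the SD between P14_WT IHCs. The log2 ratio of 1.42 was not past the fold of 2 used below. It was past it, at 2.36, without P14_WT IHC number 45, which held most of that group's counts, and it was 0.71 without the 11 P14_iOHCs of high supporting cell score. Summed counts were 4614 (interval 4482 to 4749) against 2158 (interval 2068 to 2251).

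**Figure D2:**
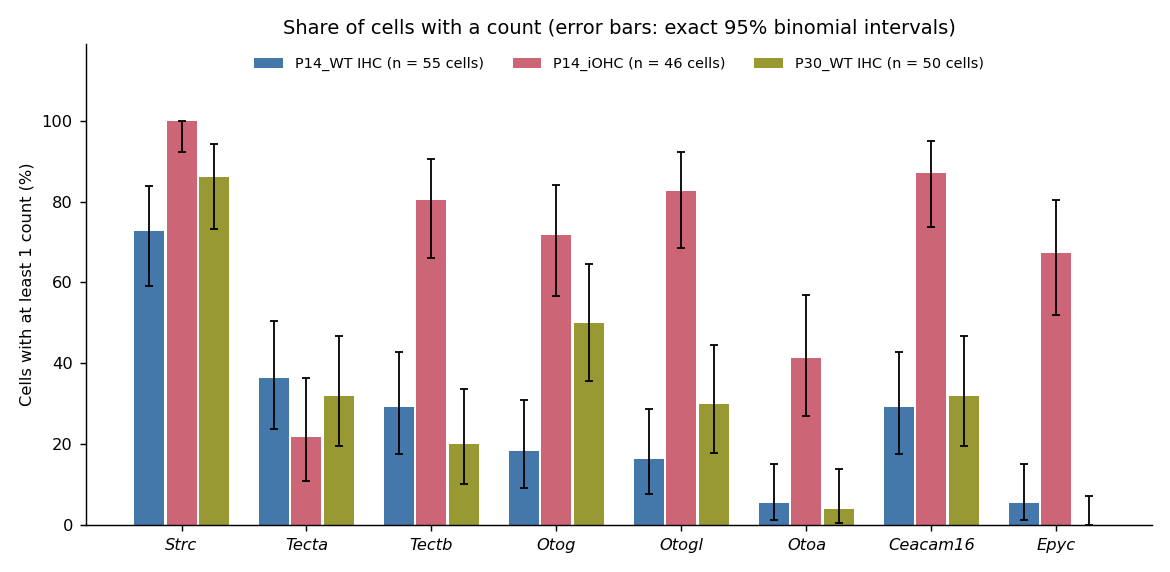
Bars give the percent of cells with at least 1 count of each gene in the 55 P14_WT IHCs, 46 P14_iOHCs and 50 P30_WT IHCs. The intervals are exact 95% binomial intervals that take cells as independent draws. All members but *Tecta* had counts in a larger share of P14_iOHCs than of either IHC group, and *Epyc* had no count in any P30_WT IHC.

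The tectorins differed from each other. *Tectb* (chr19:55180733-55196313, plus strand) had counts in 16 of 55 P14_WT IHCs (29.1%, interval 17.6% to 42.9%), with a median of 0 and a highest value of 843 CPM. In P14_iOHCs it had counts in 37 of 46 cells (80.4%, interval 66.1% to 90.6%), and its level ran from 0 through a median of 97 to 4701 CPM. In P30_WT IHCs it had counts in 10 of 50 cells (20.0%, interval 10.0% to 33.7%), up to 201 CPM. Among P14_iOHCs the levels were uneven: 27 cells had at least 5 CPM, 10 had counts below that and 9 had none. The mean was 533 ± 992 CPM (SD, n = 46 cells) against 35.2 ± 123 CPM (SD, n = 55 cells), and the 5 highest P14_iOHCs held 57.7% of their group's sum. The log2 ratio was 3.88, it was 2.66 without the 11 P14_iOHCs of high supporting cell score, and it was 4.65 without P14_WT IHC number 54.

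*Tecta* (chr9:42329619-42399929, minus strand) was the only member with a lower mean in P14_iOHCs. It had counts in 20 of 55 P14_WT IHCs (36.4%, interval 23.8% to 50.4%), 10 of 46 P14_iOHCs (21.7%, interval 10.9% to 36.4%) and 16 of 50 P30_WT IHCs (32%, interval 19.5% to 46.7%), with a median of 0 in each group. The highest values were 163 CPM in P14_WT IHCs, 63.2 CPM in P14_iOHCs and 142 CPM in P30_WT IHCs. Means were 19.7 ± 39.8 CPM (SD, n = 55 cells), 2.55 ± 10.2 CPM (SD, n = 46 cells) and 14.2 ± 33.6 CPM (SD, n = 50 cells). The groups overlapped fully, and P14_iOHCs minus P14_WT IHCs came to -0.431 times the SD between P14_WT IHCs. The intervals of the shares also overlapped, but they take cells as independent draws and are not a test between groups. The log2 ratio of -2.54 was -2.45 without the 11 P14_iOHCs of high supporting cell score and -3.23 without P14_iOHC number 1. Within the cells of lower total count, where 1 of 12 P14_iOHCs and 4 of 16 P14_WT IHCs had counts, the means were 5.26 CPM in both groups, and within those of higher total count the ratio was -3.36.

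*Ceacam16* (chr7:19852097-19861299, minus strand) had the largest ratio of the members. It had counts in 16 of 55 P14_WT IHCs (29.1%, interval 17.6% to 42.9%), up to 242 CPM, and in 16 of 50 P30_WT IHCs (32%, interval 19.5% to 46.7%), up to 133 CPM. In P14_iOHCs it had counts in 40 of 46 cells (87.0%, interval 73.7% to 95.1%), and its level ran from 0 through a median of 78.8 to 10280 CPM. Of the 46 P14_iOHCs, 14 were above every P14_WT IHC. The mean was 683 ± 1823 CPM (SD, n = 46 cells) against 13.2 ± 38.6 CPM (SD, n = 55 cells), a difference of 17.4 times the SD between P14_WT IHCs, and the 5 highest P14_iOHCs held 76.0% of the sum. The log2 ratio was 5.59, and 3.46 without the 11 P14_iOHCs of high supporting cell score. *Gm19345*, on the other strand, shares 380 of the 1635 exonic bases of *Ceacam16* (23.2%); it averaged 9.65 CPM in P14_iOHCs and 4.72 CPM in P14_WT IHCs.

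The otogelins were alike. *Otog* (chr7:46240987-46311434, plus strand) had counts in 10 of 55 P14_WT IHCs (18.2%, interval 9.08% to 30.9%), 33 of 46 P14_iOHCs (71.7%, interval 56.5% to 84.0%) and 25 of 50 P30_WT IHCs (50%, interval 35.5% to 64.5%). Its median in P14_iOHCs was 46.5 CPM and its highest value 796 CPM, against a median of 0 and a highest value of 389 CPM in P14_WT IHCs. *Otogl* (chr10:107760531-107912134, minus strand) had counts in 9 of 55 P14_WT IHCs (16.4%, interval 7.77% to 28.8%), 38 of 46 P14_iOHCs (82.6%, interval 68.6% to 92.2%) and 15 of 50 P30_WT IHCs (30.0%, interval 17.9% to 44.6%). Both mucin-related genes thus had counts in most P14_iOHCs and in few P14_WT IHCs. The median of *Otogl* in P14_iOHCs was 23.1 CPM and its highest value 1011 CPM, against 0 and 195 CPM in P14_WT IHCs.

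Means of *Otog* were 109 ± 158 CPM (SD, n = 46 cells) in P14_iOHCs and 15.9 ± 58.8 CPM (SD, n = 55 cells) in P14_WT IHCs. Means of *Otogl* were 160 ± 255 CPM (SD, n = 46 cells) and 8.39 ± 33.5 CPM (SD, n = 55 cells). Most P14_iOHCs stayed within the range of P14_WT IHCs: only 2 were above every P14_WT IHC for *Otog* and 13 for *Otogl*. The log2 ratios were 2.71 for *Otog* and 4.10 for *Otogl*. Without the 11 P14_iOHCs of high supporting cell score they were 1.79 and 2.52, so that *Otog* was no longer past the fold of 2. A single P14_WT IHC weighed on each: without number 45 the ratio of *Otog* was 3.46, and without number 54 that of *Otogl* was 4.76.

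*Epyc* (chr10:97644068-97682454, plus strand) was the most uneven. It had counts in 3 of 55 P14_WT IHCs (5.45%, interval 1.14% to 15.1%), 31 of 46 P14_iOHCs (67.4%, interval 51.98% to 80.5%) and 0 of 50 P30_WT IHCs (interval 0% to 7.11%; a limit of 3 cells would be a share of up to 6%). In P14_iOHCs its level ran from 0 through a median of 0.237 to 7176 CPM, 18 cells had at least 5 CPM, and the 5 highest cells held 86.0% of the sum. The mean of 412 ± 1283 CPM (SD, n = 46 cells) and the median thus describe different cells. In P14_WT IHCs the mean of 10.2 ± 68.8 CPM (SD, n = 55 cells) was mostly cell number 55, at 508 CPM. The log2 ratio was 5.20, with 7.68 without that IHC and 4.55 without P14_iOHC number 43, and it was 4.99 without the 11 P14_iOHCs of high supporting cell score. In the other 35 P14_iOHCs the mean was 356 CPM and the median 0.125 CPM. They include the highest cells, numbers 43 and 38, at 7176 and 4489 CPM. The scores of these cells, 4.09 and 3.80, were under the cutoff of 4.22 but above the group's median of 2.83. *Gm10754*, a lincRNA on the other strand, shares 1041 of the 2561 exonic bases of *Epyc* (40.6%) and averaged 2.59 CPM in P14_iOHCs with no count in P14_WT IHCs. Whether reads in shared exons were counted by strand is not given in the sources used here.

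Over all genes that reached 5 counts in 10 or more of the cells compared, 797 of 13673 (5.83%) were higher in P14_iOHCs by a log2 ratio over 2 and 390 (2.85%) were lower. Of the 8 members, 6 were higher past that fold (*Strc*, *Tectb*, *Otog*, *Otogl*, *Ceacam16* and *Epyc*), *Tecta* was lower past it and *Otoa* was not past it. All 8 passed the filter on counts, which pools both groups. At least 5 counts were found in 9 P14_WT IHCs for *Otog*, 7 for *Otogl*, 2 for *Epyc* and 3 for *Otoa*. These genes would not have passed without P14_iOHCs, where their means were higher. *Tecta*, with 9 such P14_iOHCs and 19 P14_WT IHCs, would not have passed without P14_WT IHCs. The tally of members past the fold and their median thus depend in part on the filter. The median log2 ratio of the 8 was 3.33, against 0.06 for all genes. Without the 11 P14_iOHCs of high supporting cell score, *Strc*, *Tectb*, *Otogl*, *Ceacam16* and *Epyc* stayed higher past the fold and *Tecta* lower, *Otoa* no longer passed the filter, and the share of all genes higher past it was 3.85%.

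Between P30_WT IHCs and P14_WT IHCs, which are the same P14_WT IHCs as above, differences in the members were small beside their spread. Of 12946 genes that passed the filter, 102 (0.788%) were higher by a log2 ratio over 2 in P30_WT IHCs and 168 (1.3%) were lower. With another scaling of the counts (DESeq2 poscounts size factors) these were 203 and 121. None of the 6 members that passed the filter was past the fold in either direction. *Otog* averaged 33.6 ± 62.5 CPM (SD, n = 50 cells) in P30_WT IHCs, a log2 ratio of 1.03, *Otogl* 14.8 ± 42.97 CPM (SD, n = 50 cells), a ratio of 0.75, *Ceacam16* 8.23 ± 22.8 CPM (SD, n = 50 cells), a ratio of -0.62, and *Tecta* had a ratio of -0.45. Each of these differences was at most 0.301 times the SD between P14_WT IHCs.

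*Tectb* averaged 10.2 ± 35.5 CPM (SD, n = 50 cells) in P30_WT IHCs, a log2 ratio of -1.69, which was -2.31 without P30_WT IHC number 13 and -0.92 without P14_WT IHC number 54. *Otoa* and *Epyc* did not pass the filter. *Otoa* in P30_WT IHCs was 1 cell at 87.1 CPM and another at 0.121 CPM. *Epyc* was at least 37.5-fold lower in P30_WT IHCs if each of their cells is set at 3 counts, a bound that rests on the mean of P14_WT IHCs and thus on cell number 55. Within the cells of lower total count, *Otog* averaged 42.6 CPM in 23 P30_WT IHCs and 0.670 CPM in 16 P14_WT IHCs, and *Otogl* 22.5 CPM against 0 in all 16; within the cells of higher total count the means were 25.97 against 22.2 CPM and 8.29 against 11.8 CPM.

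Per length, with counts divided by exon length and scaled to 1000000 per cell (TPM), *Ceacam16* was the most abundant member in P14_iOHCs, at a mean of 970 ± 2707 TPM (SD, n = 46 cells), followed by *Epyc* at 360 ± 1126 TPM, *Tectb* at 314 ± 596 TPM, *Strc* at 62.4 ± 42.4 TPM, *Otogl* at 41.5 ± 68.5 TPM, *Otog* at 24.1 ± 36.3 TPM, *Otoa* at 1.84 ± 3.54 TPM and *Tecta* at 0.791 ± 3.21 TPM. No neighbours in that order differed by more than the larger of their SDs. By the median cell the order was *Ceacam16* (113 TPM), *Tectb* (54.1 TPM), *Strc* (48.9 TPM), *Otog* (10.2 TPM), *Otogl* (6.00 TPM) and *Epyc* (0.194 TPM), with *Tecta* and *Otoa* at 0. In P14_WT IHCs mean levels were lower for each member but *Tecta* (6.70 ± 13.6 TPM, against 0.791 TPM in P14_iOHCs). They were led by *Tectb* at 22.6 ± 78.4 TPM and *Ceacam16* at 20.2 ± 59.6 TPM, with *Strc* at 9.85 ± 16.03 TPM the only member with a median above 0 (3.16 TPM). In P30_WT IHCs *Strc* led, at 15.9 ± 17.8 TPM, before *Ceacam16* at 11.9 ± 32.98 TPM and *Otog* at 7.45 ± 13.8 TPM.

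Counts of several matrix genes were found together in most P14_iOHCs, though at very low levels in some. Of the 6 matrix genes (*Tecta*, *Tectb*, *Otog*, *Otogl*, *Ceacam16* and *Epyc*), at least 4 had counts in 34 of 46 P14_iOHCs, 5 of 55 P14_WT IHCs and 4 of 50 P30_WT IHCs, and none had counts in 3, 19 and 9 cells, respectively. The median P14_iOHC had counts of 5 of them, the median P14_WT IHC of 1 and the median P30_WT IHC of 2. A single count was enough for a gene to be included. P14_iOHC number 19 had counts of 5 matrix genes that summed to 1.42 CPM. Numbers 13 and 17 had counts of 4, summing to 1.88 and 1.57 CPM. The summed level of the 6 matrix genes ran from 0 through a median of 467 to 12599 CPM in P14_iOHCs, from 0 through 2.67 to 1276 CPM in P14_WT IHCs and from 0 through 37.3 to 451 CPM in P30_WT IHCs.

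Across the 46 P14_iOHCs, Spearman's rho between matrix genes was above 0 in 15 of 15 pairs, with a median of 0.49. It was highest between *Tectb* and *Otogl* (rho = 0.75, Pearson's r = 0.74), between *Tectb* and *Otog* (rho = 0.68, r = 0.70) and between *Otog* and *Otogl* (rho = 0.67, r = 0.71). *Tecta* was the least alike, with rho from 0.14 to 0.28 to the other matrix genes. *Strc* went the other way: its rho was negative with each of the other 7 members, from -0.25 with *Tecta* to -0.43 with *Otog*. All of these are descriptions over cells that share preparation, on log2(CPM + 1), and values of 1 cell share its depth and number of detected genes.

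In the same cells the supporting cell score had a rho of 0.82 with *Otogl*, 0.81 with *Otog* and *Tectb*, 0.71 with *Ceacam16*, 0.68 with *Epyc*, 0.50 with *Otoa* and 0.27 with *Tecta*, but -0.46 with *Strc*. The number of detected genes, which itself had a rho of 0.72 with the score, gave 0.39 to 0.70 with the matrix genes and -0.48 with *Strc*. *Strc* had a rho of 0.39 with *Slc26a5*, against -0.16 to -0.46 for the matrix genes. The signs held in both sets of total count: rho with the score was -0.51 (n = 12 cells) and -0.47 (n = 34 cells) for *Strc*, and 0.74 and 0.81 for *Tectb*. The total count itself gave smaller values, -0.21 for *Strc* and 0.19 to 0.28 for the matrix genes.

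**Figure D3:**
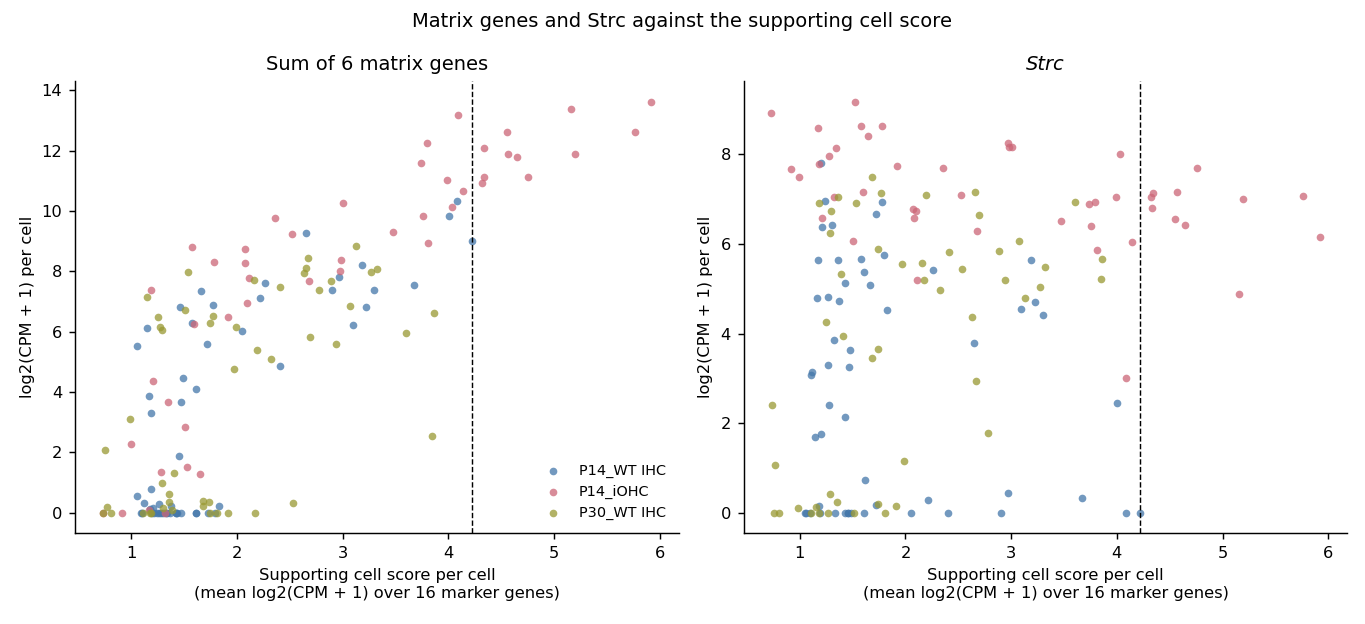
Each point is 1 cell; the x axis is the supporting cell score (mean log2(CPM + 1) over 16 markers) and the y axis log2(CPM + 1) of the summed 6 matrix genes (left) or of *Strc* (right), and the dashed line is the highest P14_WT IHC. On the left P14_iOHCs climb with the score and the 11 beyond the line are all high, whereas on the right *Strc* in P14_iOHCs is highest among cells of low score.

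The 11 P14_iOHCs whose score was above every P14_WT IHC held 65.9% of their group's summed CPM of the matrix genes. By gene they held 82.7% of the sum of *Ceacam16*, 74.8% of *Otogl*, 67.5% of *Tectb* and 59.9% of *Otog*, but 34.2% of *Epyc* and 15.4% of *Strc*. In them the matrix sum ran from 1959 through a median of 3806 to 12599 CPM, and all 11 had counts of *Tectb*, *Otog*, *Otogl*, *Ceacam16* and *Epyc*. *Strc* was at 115 ± 45.8 CPM (SD, n = 11 cells), and *Slc26a5* at 804 ± 450 CPM (SD, n = 11 cells). In the other 35 P14_iOHCs the matrix sum ran from 0 through 257 to 9366 CPM, *Strc* was at 198 ± 135 CPM (SD, n = 35 cells) and *Slc26a5* at 1253 ± 716 CPM (SD, n = 35 cells). The cells with the highest *Epyc*, 7176 and 4489 CPM, were among these 35. Their scores were 4.09 and 3.80, against a median of 2.83 over all P14_iOHCs and the cutoff of 4.22. In these 35 cells *Ceacam16* had counts in 29, with a median of 40.9 CPM. *Tectb*, *Otog*, *Otogl* and *Epyc* had counts in 26, 22, 27 and 20 of them, with medians of 1.15, 3.01, 0.595 and 0.125 CPM, and *Strc* had counts in all 35.

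In P14_WT IHCs the same relations were present in part. Spearman's rho between matrix genes was above 0 in 13 of 15 pairs, with a median of 0.17, and the score had a rho of 0.66 with *Tectb*, 0.56 with *Otog*, 0.49 with *Otogl* and 0.41 with *Ceacam16*. *Epyc* (0.04), which had counts in only 3 of these cells, and *Strc* (-0.02) showed none. In P30_WT IHCs rho was above 0 in 7 of the 10 pairs that could be formed, and the score had a rho of 0.63 with *Otog*, 0.51 with *Otogl*, 0.34 with *Tectb*, 0.29 with *Ceacam16* and 0.44 with *Strc*, but of -0.27 with *Tecta*. Over all cells of a group, *Strc* was thus negatively related to the score in P14_iOHCs only, although the difference between groups was not tested. Within the P14_WT IHCs of lower total count its rho with the score was -0.19 (n = 16 cells). With the sum of the 6 matrix genes, *Strc* had a rho of -0.45 in P14_iOHCs, -0.23 in P14_WT IHCs and 0.25 in P30_WT IHCs. By gene its rho in P14_WT IHCs ran from -0.34 with *Tecta* to 0.24 with *Epyc*.

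**Figure D4:**
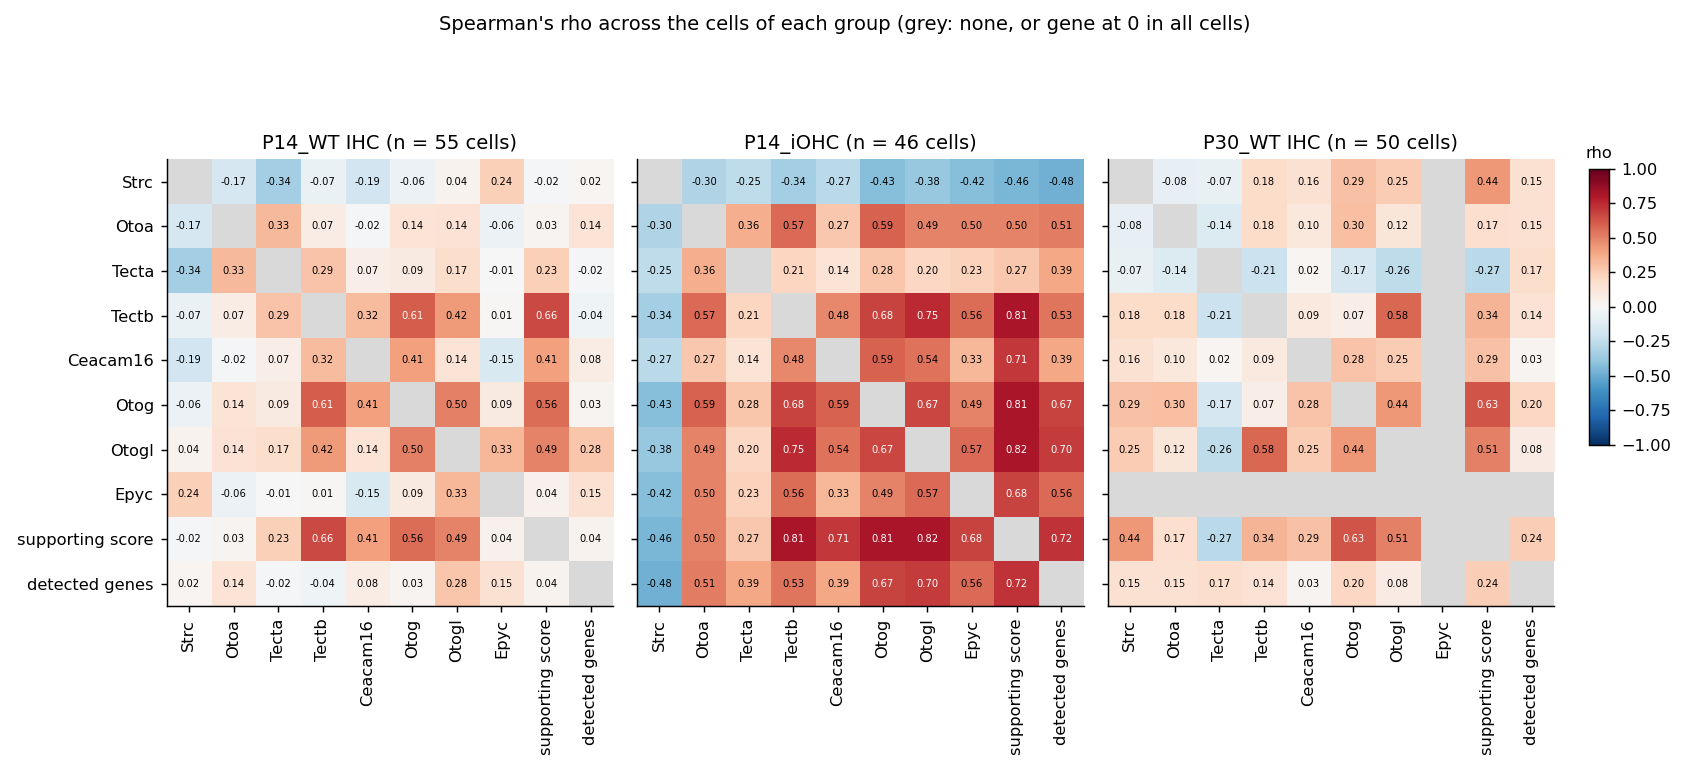
Squares give Spearman's rho across the cells of each group for pairs of the 8 genes, the supporting cell score and the number of detected genes, on a colour scale from -1 to 1. In P14_iOHCs (centre) all squares of *Strc* are negative and all others positive, up to 0.82, whereas the P14_WT IHC (left) and P30_WT IHC (right) panels are paler and *Epyc* is blank at P30.

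The genes most alike to each member across the cells of a group were found among all genes that reached 5 counts in 10 or more of its cells (11159 in P14_iOHCs). In P14_iOHCs the 3 most like *Strc* were *Spns3* (rho = 0.67), *Nf2* (0.64) and *Sorbs2* (0.60), with counts in 44, 46 and 46 cells. The matrix genes had other partners. *Tectb* was most like *Gjb2* (0.82), which encodes a gap junction connexin of supporting cells, *Ppdpf* (0.81) and *Cpxm2* (0.80), and *Ceacam16* was most like the second such connexin gene, *Gjb6* (0.80), *Kcnj16* (0.80) and *Fam107a* (0.78). *Otog* was most like *Cd9* (0.85), *Sparc* (0.84) and *Gsn* (0.83), *Otogl* most like *Dpp4* (0.85), *Sorl1* (0.83) and *Ces1d* (0.83), and *Epyc* most like *Lgals1* (0.84), *Cited1* (0.79) and *Colgalt2* (0.75). *Otoa* was most like *Dgkb* (0.71), *Ptk2b* (0.68) and *Hey1* (0.67).

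In P14_WT IHCs the genes most like *Strc* included *Gpatch8* (0.54) and *Ocm* (0.54), which encodes the OHC calcium buffer oncomodulin. *Ocm* had counts in 54 of these 55 cells, at a median of 229 CPM, against 40702 CPM in P14_iOHCs. *Tectb* was most like *Kcnj16* (0.75), *P2rx2* (0.74) and *Fibin* (0.74), *Ceacam16* most like *Cep350* (0.52), *Bcam* (0.50) and *Lamc1* (0.48), and *Tecta* most like *Dnaja1* (0.51), *Mre11a* (0.51) and *Ppdpf* (0.49). In P30_WT IHCs *Strc* was most like *Mospd1* (0.54), *Zfp317* (0.53) and *Srr* (0.51), and *Tecta* most like *Eif4e3* (0.53), *Gm50203* (0.53) and *Pno1* (0.52). The other members at that age had partners seen above in P14_iOHCs as well: *Gsn* was among the 3 genes most like *Otog* (0.65) and *Otogl* (0.58), and *Sparc* (0.62) and *Cd9* (0.62) were the genes most like *Ceacam16*. The remaining ones were *Tspan8* (0.65) and *Sfrp1* (0.64) for *Otog*, *Basp1* (0.59) and *P2rx2* (0.59) for *Otogl*, and *Anxa2* (0.56) for *Ceacam16*.

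Other genes of the same structures were read from lists. The collagens of the tectorial membrane (types II, IX and XI) were higher in P14_iOHCs like the non-collagenous matrix genes other than *Tecta*. Of 6 collagens, 4 were higher past the fold, against 5.83% of all genes, and none was lower, with a median log2 ratio of 2.78. *Col2a1*, *Col9a1* and *Col9a3* reached 5 counts in only 5, 8 and 3 P14_WT IHCs. They would not have passed the filter without P14_iOHCs. *Col9a3* averaged 40.9 against 2.22 CPM (log2 ratio 3.70), *Col11a2* 34.8 against 2.25 CPM (3.46), *Col2a1* 28.2 against 2.37 CPM (3.11) and *Col9a1* 21.3 against 3.09 CPM (2.45). Without the 11 P14_iOHCs of high supporting cell score, 3 of 6 were past the fold and the median was 1.91. *Col9a3* was at 2.84, *Col11a2* at 2.51 and *Col2a1* at 2.05, while *Col9a1*, at 1.77, was no longer past it. The share of all genes higher past the fold was also smaller without those cells, as given above. In P30_WT IHCs *Col11a1* averaged 0.01 CPM, in 3 of 50 cells, and was the 1 collagen of the 3 that passed the filter to be lower past the fold (log2 ratio -2.47). The share of all genes lower past it in that comparison was 1.3%.

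Of 5 genes of other acellular gels of the inner ear, 4 passed the filter and none was past the fold in either comparison; at 5.83% of all genes higher and 2.85% lower past it, that count does not set the list apart from other genes. *Otol1*, the otoconial otolin, had counts in 22 of 46 P14_iOHCs and 9 of 55 P14_WT IHCs. It averaged 22.9 against 5.57 CPM, 4.12-fold (log2 ratio 1.87, and 1.23 without the 11 P14_iOHCs of high supporting cell score). *Otos*, which encodes otospiralin of the lateral wall and limbus, averaged 2.13 against 7.45 CPM (-1.43, and -1.15 without those cells).

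Among genes of hair bundle links and the bundle's surface coat, *Tub* was past the fold upward in P14_iOHCs. *Tub* encodes tubby, which lies with stereocilin at the attachments of OHC stereocilia. It had counts in 43 of 46 P14_iOHCs, with a median of 57.8 CPM, and in 25 of 55 P14_WT IHCs, with a median of 0 (means 113 and 15.2 CPM, log2 ratio 2.81). On the other strand, the lincRNA *Gm26599* shares 1056 of the 8391 exonic bases of *Tub*, and *Ric3* shares 149. The rho of *Tub* with *Strc* in P14_iOHCs was 0.21, and -0.03 to -0.30 with the matrix genes. In the 11 P14_iOHCs of high supporting cell score *Tub* was at 63.4 ± 63.3 CPM (SD, n = 11 cells), and at 128 ± 128 CPM (SD, n = 35 cells) in the others, so that the ratio was 2.99 without the 11. The tip link genes *Cdh23* (301 against 328 CPM, log2 ratio -0.12) and *Pcdh15* (68.6 against 77.5 CPM, -0.17) and the shaft connector gene *Ptprq* (105 against 371 CPM, -1.81) were not past the fold. Without the 11 cells their ratios were 0.09, -0.12 and -1.71.

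Most relatives of the members by protein family were found in few cells. Of 22 relatives (mesothelin, mucin, carcinoembryonic antigen and small leucine-rich proteoglycan genes), 5 had no count in any cell of postnatal day 14 and 13 had counts in fewer than 10 of those cells. The share of all genes higher past the fold in P14_iOHCs was 5.83%. In the comparison of P14_iOHCs with P14_WT IHCs 3 relatives passed the filter and 1 was past the fold. This was *Lum*, encoding lumican, at 339 CPM in P14_iOHCs and 49.1 CPM in P14_WT IHCs (log2 ratio 2.76). Without the 11 P14_iOHCs of high supporting cell score it was at 193 CPM in P14_iOHCs, and its ratio of 1.95 was no longer past the fold. *Lum* (chr10:97565128-97572703) and *Dcn* (chr10:97479609-97518143), encoding decorin, lie beside *Epyc* on the same strand with *Kera* (chr10:97606879-97613692) between. *Dcn* averaged 41.4 against 11.9 CPM (1.72, and 0.87 without those cells), and *Kera* had no count in any cell. *Lum* had a rho of 0.61 with *Epyc* in P14_iOHCs, 0.81 with *Otogl*, 0.77 with *Tectb* and -0.54 with *Strc*. The other relative that passed, *Muc6*, averaged 1.87 against 0.77 CPM (0.69) and did not pass the filter without the 11 cells.

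Of the 13 supporting cell markers that passed the filter in the same comparison, 6 were higher past the fold in P14_iOHCs and 1, *Ptprz1*, was lower, with a median log2 ratio of 1.98. The shares over all genes were 5.83% higher and 2.85% lower, and the share higher was smaller without the 11 P14_iOHCs, as given above. *Gjb6* averaged 607 against 87.6 CPM (2.78), *Slc1a3* 157 against 21.1 CPM (2.84) and *Sox10* 46.5 against 2.86 CPM (3.62). Without the 11 P14_iOHCs, which these same markers had picked out, 11 passed the filter, *Sox10* was the 1 marker higher past the fold (2.37) and *Ptprz1* stayed lower (-3.04); *Gjb6* was at 1.55 and *Slc1a3* at 1.36. These values stand beside those of the matrix genes, and their part in them was not tested. Of the 5 markers of fibroblasts or mesenchyme, *Pou3f4* was at 0 in all 3 groups, and the summed level had a median of 34.8 CPM (0 to 153) in P14_iOHCs, 66.6 CPM (0 to 250.1) in P14_WT IHCs and 50.1 CPM (0 to 313) in P30_WT IHCs. Most of it was *Pdgfra*, at a mean of 30.7 CPM in P14_iOHCs and 62.4 CPM in P14_WT IHCs, and *Col1a1* was at 6.13 and 8.23 CPM. The other collagen genes of the list went the other way: *Col3a1* was at 3.82 CPM in P14_iOHCs, with counts in 7 cells, and at 0 in every P14_WT IHC, and *Col1a2* had counts in 11 P14_iOHCs and 1 P14_WT IHC, at means of 0.106 and 0.002 CPM. Neither passed the filter.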

How the data were processed

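Single cells were picked by hand and their cDNA was amplified with a Smart-Seq HT kit, without molecular identifiers. Per the labels, the authors' tools were FastQC 0.11.9, Trimmomatic 0.39, HISAT2 2.1.0 (mm10), StringTie 1.3.5 and HTSeq 0.10.0. The values deposited by the authors are whole-number counts per gene for 55291 genes and 151 cells, without normalization. The annotation and strandedness of the counting are not given in the sources used here.

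CPM is the count over the cell's total, times 1000000. Ratios are log2 of (mean CPM + 1) over cells, and the fold of 2 applies to genes that reached 5 counts in 10 or more of the cells compared. TPM used merged exon lengths of GENCODE M21 for 53292 of the genes. Each group counts as 1 sample, so no test was run. The ratio was checked on simulated data, with large changes set in genes of higher mean in P14_WT IHCs than most members had. The check therefore does not cover genes as low and uneven as those members. No libraries of a group were identical. Python 3.11.15, R 4.3.3, edgeR 4.0.16 and DESeq2 1.42.0 supplied the ratios and the scaling alternatives. Named genes are the members, the listed genes and, for each member that reached 5 counts in 10 or more cells of a group, the 3 genes of highest rho. The members and lists were chosen with earlier results of these data known. Some genes of the lists and of the most alike genes are not reported here.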

Additional observations from a re-analysis of the deposited data

How the results depend on the processing

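In P14_iOHCs against P14_WT IHCs, the direction of every member but *Tecta* and *Otoa* held under each alternative tried; the log2 ratio of *Tecta* was 0.0013 within cells with totals under 11000000, and 0.00 for medians over cells, as was that of *Otoa*. Also beyond 1 SD between cells were the ratio of *Epyc* for medians (0.31) and of *Otoa* within totals under 11000000 (3.45). In P30_WT IHCs against P14_WT IHCs, that set of cells gave 4.71 for *Otog*, 4.56 for *Otogl*, 2.26 for *Otoa* and 0.00 for *Epyc*. The upper set gave -1.90 for *Otoa*, and *Epyc* was -0.27 as a mean of log2(CPM + 1), -6.69 with a pseudocount of 0.1 CPM and 0.00 for medians. With 1 cell left out, *Otoa* ranged from -1.55 to 0.85 and *Epyc* from -3.51 to -1.01.

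The percent of genes past the fold in P14_iOHCs was 2.77% higher with means of log2(CPM + 1), 4.71% lower with the smaller pseudocount, 3.59% higher and 4.76% lower within totals under 11000000, 3.85% higher without cells of high supporting cell score, and 3.72% higher and 1.63% lower with no filter. In P30_WT IHCs it was 1.57% higher with poscounts size factors, which moved the median of all genes to 0.26, 0.27% higher with means of log2(CPM + 1), 1.91% higher and 2.71% lower with the smaller pseudocount, 1.27% higher and 2.02% lower within totals of at least 11000000, 1.61% higher and 2.29% lower within totals under it, and 0.746% lower with no filter. The cause was not tested.

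Shares of cells left their intervals, which take cells as independent draws, as follows. At 5 CPM or more, they were 52.7% (*Strc*, P14_WT IHC), 66.0% (*Strc*, P30_WT IHC), 8.70% (*Tecta*, P14_iOHC), 18% (*Tecta* and *Ceacam16*, P30_WT IHC), 58.7% (*Tectb*, P14_iOHC), 10.0% (*Tectb*, P30_WT IHC), 34% (*Otog*, P30_WT IHC) and, in P14_iOHCs, 56.5% (*Otogl*), 26.1% (*Otoa*), 71.7% (*Ceacam16*) and 39.1% (*Epyc*). At 5 counts or more, they were 65.2% (*Otogl*) and 47.8% (*Epyc*) in P14_iOHCs. Within totals under 11000000, P14_WT IHCs had 12.5% (*Tectb* and *Ceacam16*), 6.25% (*Otog*) and 0% (*Otogl*, *Otoa* and *Epyc*), P14_iOHCs 8.33% (*Tecta*), 66.7% (*Otogl*), 25.0% (*Otoa*) and 50% (*Epyc*), and P30_WT IHCs 95.7% (*Strc*). Within totals of at least 11000000, P30_WT IHCs had 0% (*Otoa*). Thinning every cell to 4000000 counts kept each share in its interval.

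No paired analysis was possible because no result comes from a test and the labels do not say that cells of the same number share anything. Low numbers hold the cells of lower total count in each group, though not without exception in P14_iOHCs. With each group counted as 1 sample, differences between mice, litters or picking sessions cannot be told apart from the groups. The 2 sets of total counts are defined by depth alone, and what else differed between them is not given in the labels.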

Other observations

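The remaining marker lists were as follows. Of 11 hair cell markers, 3 (*Ocm*, *Slc26a5* and *Ikzf2*) were higher past the fold in P14_iOHCs and 3 (*Otof*, *Slc17a8* and *Slc7a14*) were lower, with a median log2 ratio of 0.08. All genes that passed the filter gave 5.83% higher and 2.85% lower. Without the 11 P14_iOHCs of high supporting cell score the marker counts were again 3 and 3, with a median of 0.31. The share of all genes higher past the fold was smaller without those cells, as given above. Of 5 glia markers 2 passed the filter, of 5 neuron markers 3, of 5 blood markers 4 and of 6 immune markers 2. Among these, 1 immune marker was past the fold, downward, and none was upward. Their summed levels had medians of 6.53, 83.0, 0 and 0 CPM in P14_iOHCs and of 0.921, 234, 0 and 4.03 CPM in P14_WT IHCs, in the same order.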
